A study of Rattus norvegicus with 80 samples.

Results

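Mammary tumors of the rat line named IF were compared with whole mammary pads of the same line. The comparison took all libraries labelled IF tumor and all labelled IF whole mammary pad, 5 tumors and 3 pads, 8 of the 80 RNA sequencing libraries of the series. The series was made with 3 rat lines mutated in Nf1, named IF, PS and IFPS, and with wildtype rats. Both groups of the comparison carry the IF genotype, so the line itself is common to tumors and pads. The labels give no age, treatment or hormone state and do not spell out IF. They do not say whether the tumors and pads came from separate animals, so p-values measure spread between libraries. For the tests of genes, this spread is estimated over the tumors and pads of all 3 mutated lines. The 3 pads carry the title numbers 7 to 9.

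Nf1 encodes neurofibromin, a protein that speeds the hydrolysis of GTP on Ras and so lowers Ras signaling. The mammary pad is mostly fat, with ducts of luminal and basal epithelial cells, fibroblasts and their matrix, vessels, nerves and leukocytes. A mammary tumor is in most cases a growth of epithelial cells with a stroma of its own, so a whole tumor set against a whole pad differs both in which cells it holds and in what those cells express. In whole tissue, fewer cells of a type and less RNA per cell cannot be told apart.

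Total counts were 18.1e6 to 24.1e6 in the tumors and 23.4e6 to 30.4e6 in the pads, and 18600 to 19090 genes had a count in a tumor against 19010 to 19549 in a pad. The deposited table gives Ensembl gene identifiers without symbols, and 0 of them could be matched to a name with the reference used here. Nf1 itself and all lists of named genes were therefore not analysed here. Groups of genes are described instead by the cell type in which they were highest among wildtype mammary epithelial cells (MECs), adipocytes and fibroblasts that the study had isolated (3 libraries each, none of them part of the comparison). The MECs and fibroblasts had been cultured, so genes that culture changes may be placed in another class than in tissue. A gene was called enriched in a cell type when its mean there was at least 1 CPM (counts scaled to library size, per 1e6) and at least 4-fold above both other types, and absent from isolated cells when it stayed under 1 CPM in all 3.

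In the fit that tests genes, the tumors and pads of all 3 mutated lines share an estimate of the spread, and 3 of the 9 IFPS tumors (6, 8 and 9) stood apart from the other 6. They had 0.973%, 1.4% and 0.388% of their counts on MEC-enriched genes, against 5.81% to 6.82% in the others, and tumor 6 had 19.2% on adipocyte-enriched genes. Counts of called genes are therefore also given without these 3 libraries, which is an alternative chosen after the data were seen.

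The first question was how far IF tumors differ from the gland of the same line. Of 17227 genes tested, 4007 (23.3%) had an adjusted p-value under 0.05 (edgeR, quasi-likelihood, Benjamini-Hochberg). Of these, 1733 (10.1% of those tested) were higher in tumors and 2274 (13.2%) were lower. Without IFPS tumors 6, 8 and 9 the count was 7038 (3586 higher and 3452 lower), which held 3994 of the 4007 genes, all in the same direction. Among called genes the decreases were larger than the increases. The median log2 fold change was -1.87 among the lower genes and 0.84 among the higher genes. Over all genes tested the median was 0.05 and the quartiles were -0.58 and 0.52. Which genes are called also depends on their spread, so the difference in size is a description of called genes. Among the lower genes 1077 differed at least 4-fold, against 430 of the higher genes. At least 16-fold differences were found for 319 lower and 140 higher genes when the 48 lower and 21 higher genes without a count in one group were set to the bound that 3 counts over that group allow.

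The 5 tumors lay outside the range of the 3 pads for most called genes. All tumors were above all pads for 1387 of the higher genes, and all tumors were below all pads for 2049 of the lower genes. Over all tested genes, 34.3% showed no overlap, 14.5% with the tumors above and 19.8% with the tumors below. A further 1113 genes with tumors above and 1367 with tumors below did not pass the test. Calls were spread over all levels of expression. With genes cut into 4 equal sets by mean level, 16.6% were called in the lowest set, up to 2.46 CPM, against 24.4% to 26.8% in the other 3 sets. The median absolute log2 fold change of called genes was 3.23 in the lowest set and 0.82 in the highest, above 48.5 CPM. At low levels a gene needs a larger change to pass the test. These medians are therefore a description of called genes.

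**Figure D1:**
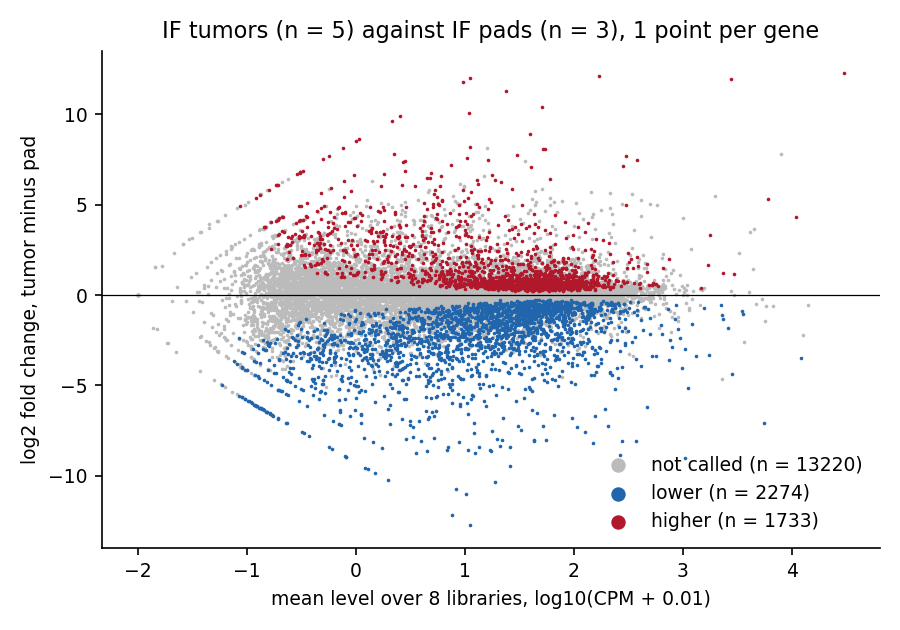
Each point is 1 of the 17227 tested genes, with its mean level over the 5 IF tumors and 3 IF pads on the x axis (log10 of CPM plus 0.01) and the log2 fold change of tumors against pads on the y axis. Red points are the 1733 higher genes and blue points the 2274 lower genes, and blue points reach further from 0 than red points over most of the range.

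Leaving out pad 1, pad 2 or pad 3 left 2500, 2298 or 2113 called genes, whereas leaving out a tumor left between 3235 and 3898. Genes shared with the full fit made up most of each reduced set. Without pad 3, for example, 2082 of the 2113 genes had also been called with it, all in the same direction. With 6 wildtype pads in place of the IF pads, 7369 genes were called, and this set held 3923 of the 4007 genes, all in the same direction. With wildtype pads 1 to 3, a group as small as the IF pads, 4244 genes were called, 3218 of them shared and in the same direction. Both comparisons use the same 5 tumors.

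Some genes were seen in nearly only 1 of the groups, which the levels that chose them fix and which is given as a description. There were 5 genes that averaged under 0.1 CPM in the pads and had 1 CPM or more in every tumor. All 5 averaged under 1 CPM in each type of isolated wildtype and IF cell. In turn, 44 genes were at 1 CPM or more in every pad and under 0.1 CPM on average in tumors. The first rule asks for 1 CPM in each of 5 tumors and the second in each of 3 pads. These counts are therefore not set against each other. Of these 44, 21 (47.7%) were adipocyte-enriched and 17 (38.6%) were absent from isolated cells, classes that hold 6.01% and 19.5% of all genes tested.

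The extremes of the comparison are given by 4 identifiers, the 2 largest increases and the 2 largest decreases among called genes without overlap and with at least 10 CPM in the higher group. Since their values chose them, their levels are a description.

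ENSRNOG00000039326 had the largest increase. The tumors had 23570, 136550, 18523, 43607 and 22486 CPM in the order of their numbers, and the pads had 15, 0.417 and 14.6 CPM. It took 2.26% to 11.5% of all counts of a tumor. Every tumor stood far above every pad, tumor 2 was the highest, and pad 2 was far below the other pads. The log2 fold change was 12.27 ± 3.59 (SE) with an adjusted p-value of 0.0148 by edgeR's quasi-likelihood test. Without pad 1, 2 or 3 the adjusted p-value was 0.0534, 0.0634 or 0.0582 by edgeR at log2 fold changes of 12.72, 11.74 and 12.70, so the call rested on each pad. Isolated IF MECs had at most 0.081 CPM and isolated IF fibroblasts had 0 counts. Isolated IF adipocytes had 2.43, 3.52 and 240.4 CPM. Wildtype pads ran from 5.17 to 1339 CPM, so single wildtype pads can reach a level well above that of the IF pads. PS tumors had a median of 2.86 CPM (0.174 to 76.5) and IFPS tumors a median of 15.7 CPM (0 to 7168), and all 5 IF tumors were above all of them. The difference of the tumor-pad change of IF from that of PS was 15 ± 4 on the log2 scale (SE, adjusted p-value 0.096 by edgeR) and that from IFPS was 6.45 ± 3.01 (adjusted p-value 0.278), so neither passed the threshold. Without IFPS tumors 6, 8 and 9 in the fit the difference from PS was 15.03 ± 3.67 and passed (adjusted p-value 0.0229 by edgeR). In that fit the difference from IFPS was 5.99 ± 2.77 and did not pass (adjusted p-value 0.259 by edgeR). The identifier was chosen by its tumor-pad change in IF, which is part of both differences.

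ENSRNOG00000036825 was found only in tumors among the 8 libraries, and unevenly. The tumors had 49.8, 1.52, 0.856, 36.1 and 1.77 CPM, and the 3 pads had 0 counts. Tumors 1 and 4 were high and tumors 2, 3 and 5 were low, though each low tumor still had 22 to 39 counts. Against the floor of 3 counts over the pads, the pooled tumor level, from raw totals, was at least 604-fold higher. This bound was 303-fold without tumor 1, 382-fold without pad 1 and 393-fold without pad 2. The adjusted p-value was 0.00247 by edgeR. Wildtype pads had 0 counts in all 6 libraries, PS pads reached 0.0299 CPM, and the isolated cells of IF had 0 counts in all 9 libraries. PS tumors reached 0.722 CPM and IFPS tumors 0.296 CPM. Every IF tumor was thus above every tumor of the other lines. With pads at or near 0 in all lines, differences of the tumor-pad change are poorly determined. The difference from PS was 8.33 ± 4.88 on the log2 scale (SE, adjusted p-value 0.632 by edgeR) and did not pass. The difference from IFPS could not be estimated.

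ENSRNOG00000029881 had the largest decrease. The tumors had 0 counts in all 5 libraries, and the pads had 44.3, 0.0347 and 45.2 CPM. Pads 1 and 3 were high, whereas pad 2 had a single count and so lay close to the tumors. Against the floor of 3 counts over the tumors, the pooled pad level was at least 1100-fold higher. This bound was 745-fold without pad 1, 1690-fold without pad 2 and 878-fold without pad 3. Without 1 of the tumors it ran from 848-fold to 911-fold. The adjusted p-value was 0.0081 by edgeR. The same unevenness was seen in other pads, which ran from 0.141 to 146.0 CPM in wildtype, from 0.141 to 99.3 CPM in PS and from 0.0376 to 103.0 CPM in IFPS. PS tumors reached 15.2 CPM and IFPS tumors 0.129 CPM. The differences of the tumor-pad change did not pass (adjusted p-value 0.491 against PS and 0.854 against IFPS by edgeR).

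ENSRNOG00000020945 followed the same division of the pads. The pads had 43.7, 0.521 and 37.3 CPM, with pad 2 again low. Tumor 3 had 1 count and the other 4 tumors had 0. The pooled ratio of pads to tumors was 3046 (95% interval 546 to 120357, exact binomial, counting error only). It was 1873 without pad 1 and 4651 without pad 2, and without tumor 3 the pads were at least 812-fold higher. The adjusted p-value was 0.00533 by edgeR. PS tumors reached 26.0 CPM and IFPS tumors 0.717 CPM, and the differences of the tumor-pad change did not pass (adjusted p-value 0.324 against PS and 0.589 against IFPS by edgeR). Both of these identifiers stayed under 1 CPM in isolated wildtype cells. Isolated IF adipocytes had 0.694 to 4.29 CPM of ENSRNOG00000029881 and 0.931 to 2.25 CPM of ENSRNOG00000020945. The split of the pads extended to other genes. Of 73 genes with a standard deviation above 2 on the log2(CPM + 1) scale among the pads, 65 were lowest in pad 2 and 63 were highest in pad 1.

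**Figure D2:**
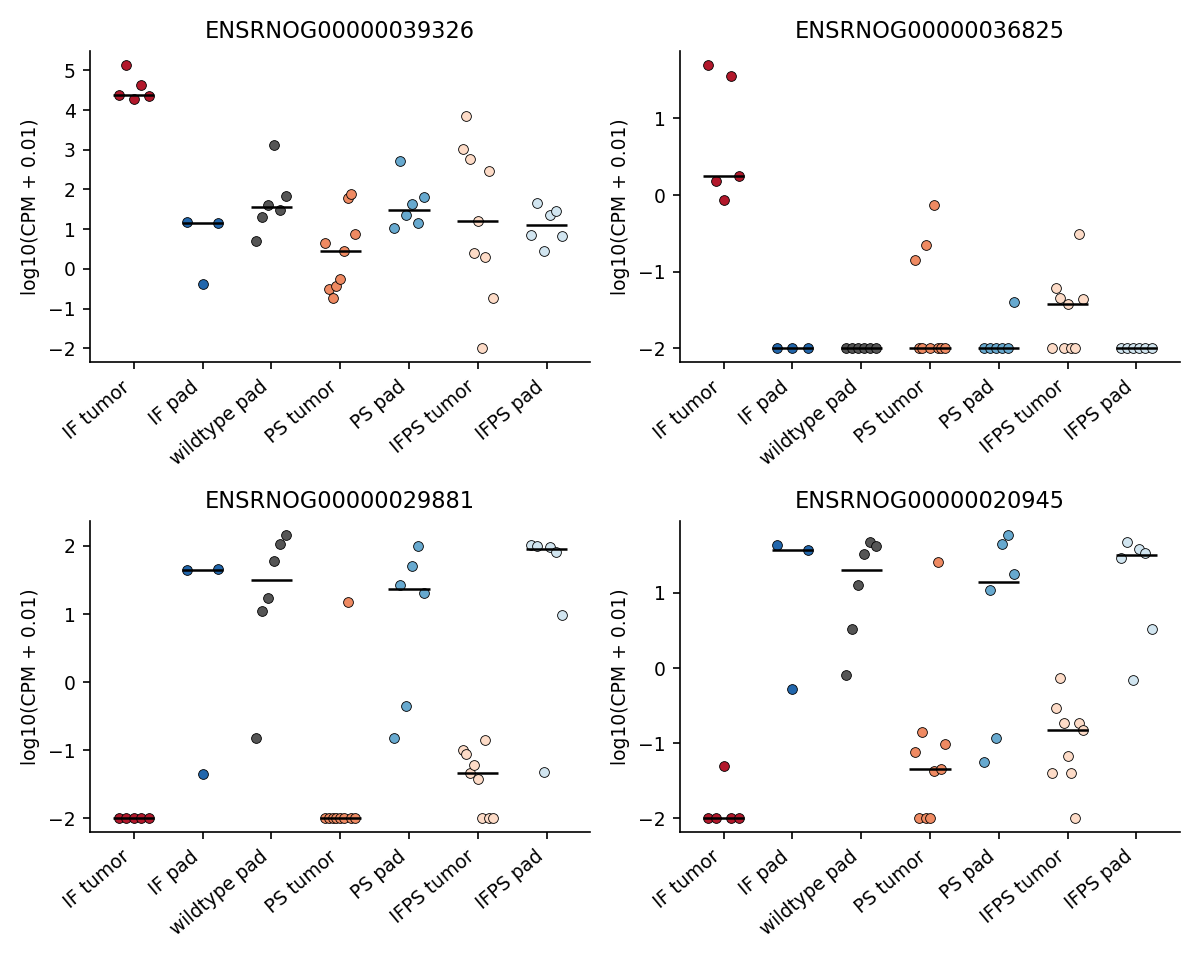
The level of 4 identifiers in every tumor and pad library of the mutated lines and in wildtype pads is plotted as log10 of CPM plus 0.01, with 1 point per library and a line at the group median. The 5 IF tumors are above all pads for ENSRNOG00000039326 and ENSRNOG00000036825, and at or near the bottom of the axis for ENSRNOG00000029881 and ENSRNOG00000020945, for which 1 of the 3 IF pads is also low.

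The makeup of the changes was then examined by cell class. Adipocytes store and release fat and make up most of the pad's volume. Of 1036 adipocyte-enriched genes tested, 375 (36.2%) were lower in IF tumors and 36 (3.47%) were higher, against 13.2% lower and 10.1% higher over all genes tested. The median log2 fold change of the class was -1.36, against 0.05 over all genes. These genes made up 6.01% of the genes tested and 16.5% of the lower genes. The share that was lower grew with the strength of the enrichment in wildtype adipocytes. It was 28.2% of 412 genes under 8-fold, 36.6% of 254 genes between 8-fold and 16-fold, 44.8% of 239 genes between 16-fold and 64-fold and 45.0% of 131 genes at 64-fold or more. The typical lower gene of this class had 26.9 CPM in IF pads (median over the 375 genes), 27.1 CPM in wildtype pads, 30.3 CPM in isolated IF adipocytes and 3.14 CPM in tumors.

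A minority of adipocyte-enriched genes went the other way. The 36 higher genes had a median of 16.9 CPM in tumors and 5.24 CPM in IF pads, with log2 fold changes from 0.61 to 3.86. Of the 36, 29 showed no overlap, against 1387 of all 1733 higher genes. In isolated IF adipocytes the median of the 36 was 54.0 CPM.

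Adipocyte-enriched genes held 4.55%, 8.02%, 3.85%, 4.2% and 3.91% of the counts in tumors 1 to 5 and 9.30%, 12.1% and 10.2% in pads 1 to 3. Every tumor was below every pad, and tumor 2 was nearest to the pads. The mean was 4.90% ± 1.76 in tumors (SD, n = 5) and 10.5% ± 1.43 in pads (SD, n = 3), with an exact permutation p-value of 0.0179 (two-sided, the smallest that 5 against 3 libraries allow, adjusted over 5 classes 0.0447). The high value of tumor 2 came from few genes. The 10 most abundant genes of the class held 5.74% of the counts in tumor 2 and 1.41% to 2.01% in the other tumors. Without the 10 most abundant genes of each library, the share was 2.28% in tumor 2, 2.38% to 2.59% in the other tumors and 6.01% to 6.91% in the pads. The median log2 ratio to the pads over the class was -1.12 in tumor 2 and -1.17 to -1.51 in the other tumors.

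Fibroblasts make the collagens and much of the other matrix of the pad. Of 281 fibroblast-enriched genes tested, 69 (24.6%) were lower in IF tumors and 10 (3.56%) were higher. Over all genes tested 13.2% were lower and 10.1% were higher. The median log2 fold change of the class was -0.81, against 0.05 over all genes. The 69 lower genes had medians of 17.1 CPM in IF pads, 43.3 CPM in isolated IF fibroblasts and 2.78 CPM in tumors. Of the 69, 63 showed no overlap, against 2049 of all 2274 lower genes. The 10 higher genes were low in pads, with a median of 0.493 CPM against 9.02 CPM in tumors. Of the 10, 6 overlapped between the groups, against 346 of all 1733 higher genes. By enrichment, 28.9% of 152 genes under 8-fold, 17.9% of 78 genes between 8-fold and 16-fold, 20.8% of 48 genes between 16-fold and 64-fold and 1 of 3 genes at 64-fold or more were lower.

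The fibroblast-enriched share of counts separated the tumors from each other. It was 2.77% in tumor 1 and 3.28% in tumor 2, against 1.07%, 0.844% and 0.836% in tumors 3, 4 and 5, and 3.80%, 3.87% and 4.76% in the pads. Every tumor was below every pad. The mean was 1.76% ± 1.17 (SD, n = 5) against 4.14% ± 0.535 (SD, n = 3), with an exact permutation p-value of 0.0357 (two-sided, adjusted over 5 classes 0.0595), which did not pass after adjustment. The difference among tumors again lay in abundant genes. The 10 most abundant genes of the class held 2.33% and 2.95% of the counts in tumors 1 and 2 and 0.471% to 0.696% in tumors 3 to 5. Without the 10 most abundant genes the 5 tumors ran from 0.336% to 0.447% and the pads from 0.620% to 0.788%. The median log2 ratio to the pads was -0.72 in tumor 1 and -0.87 to -0.92 in the other tumors.

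MEC-enriched genes, which include those of the ductal epithelium from which mammary tumors usually arise, had mostly positive fold changes. Of 772 tested, 84 (10.9%) were higher in IF tumors and 25 (3.24%) were lower. The share of higher genes was thus near the 10.1% over all genes, whereas the median log2 fold change of 1.08 was above the 0.05 of all genes, and 77.2% of the class had a positive value against 52.6% of all genes. Without overlap, 244 genes of the class (31.6%) were above the pads in all tumors and 46 (5.96%) were below, against 14.5% and 19.8% of all genes tested. The 84 higher genes had medians of 5.10 CPM in IF pads, 11.1 CPM in isolated IF MECs and 41.5 CPM in tumors, and the largest log2 fold change was 10.40. The 25 lower genes had medians of 11.7 CPM in pads, 10.1 CPM in isolated IF MECs and 1.08 CPM in tumors. Of the 25, 22 showed no overlap, against 2049 of all 2274 lower genes. The median log2 fold change of the class increased with enrichment in wildtype MECs, from 0.73 for 281 genes under 8-fold to 1.10, 1.30 and 1.59 for 220, 235 and 36 genes with stronger enrichment. The share that was called higher did not follow this order, at 11%, 14.5%, 8.09% and 5.56%.

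MEC-enriched genes took 7.40%, 9.62%, 9.01%, 11.7% and 8.71% of the counts in tumors 1 to 5 and 2.37%, 1.77% and 2.25% in the pads. The mean of 9.29% ± 1.58 (SD, n = 5) in tumors stood against 2.13% ± 0.319 (SD, n = 3) in pads, with an exact permutation p-value of 0.0179 (two-sided, adjusted over 5 classes 0.0447). All tumors were above all pads. Wildtype pads ran from 1.16% to 3.36%, a wider range than that of the IF pads and also below every tumor. Tumor 2 differed from the others in how this share was made up. Its 10 most abundant genes of the class held 75.4% of the class share, against 51.1% to 65.9% in the other tumors and 25.1% to 33.6% in the pads. The median MEC-enriched gene was near its pad level in tumor 2, at a log2 ratio of 0.05, and at 0.51, 0.90, 0.90 and 0.97 in tumors 1, 3, 4 and 5.

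**Figure D3:**
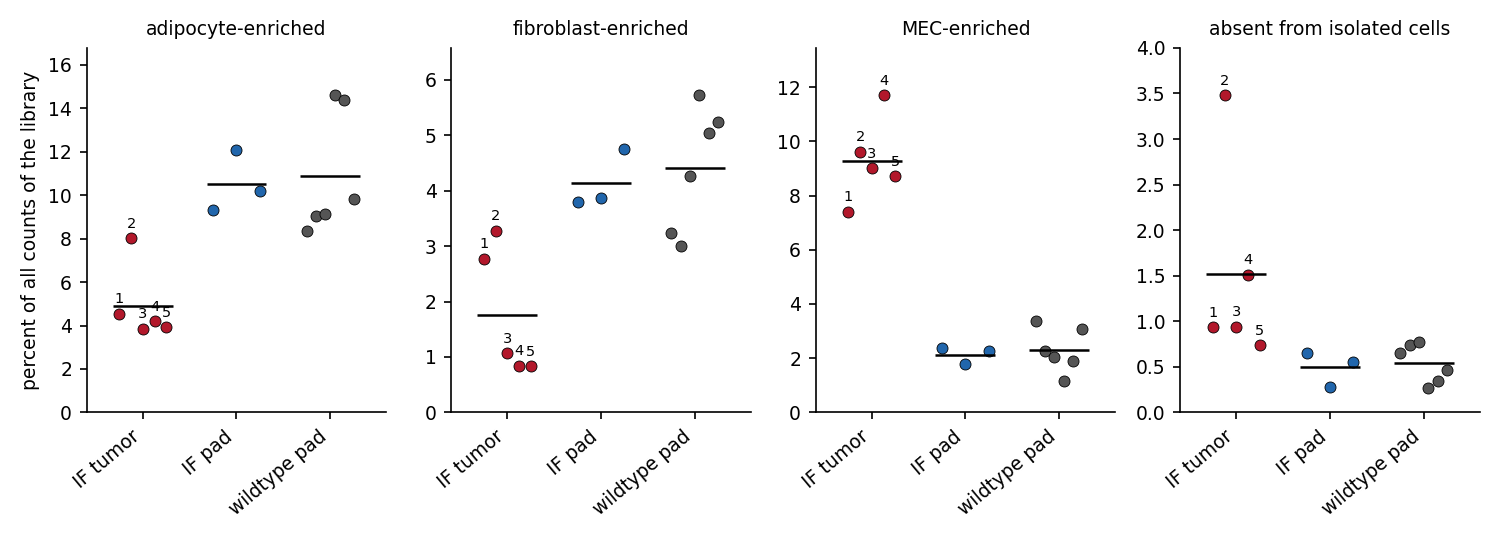
Each panel plots the percentage of a library's counts that fell on genes of 1 class, for IF tumors, IF pads and wildtype pads, with 1 point per library, the tumor number beside each IF tumor and a line at the group mean. All 5 IF tumors are below the 3 IF pads for adipocyte-enriched and fibroblast-enriched genes and above them for MEC-enriched genes, and tumor 2 is the highest tumor in the adipocyte-enriched panel at 8.02% and in the panel of genes absent from isolated cells at 3.48%.

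Genes absent from isolated cells, which stayed under 1 CPM there, can belong to tissues that were not isolated, such as vessels, nerves and leukocytes. They can also belong to cell states that the isolated cells did not hold, or be low in every cell. Their origin was not tested. Of 3362 such genes tested, 305 (9.07%) were higher and 334 (9.93%) were lower in tumors, both below the shares over all genes. Levels were low. The higher genes had medians of 1.41 CPM in tumors and 0.163 CPM in pads, and the lower genes 0.0906 CPM in tumors and 1.44 CPM in pads. The fitted median log2 fold change of the class was 0.41, and 0.40 with genes at 0 in one group at their bound, but the median log2 ratio per tumor, with 0.5 CPM added, lay between -0.02 and -0.07. The 2 measures differed in sign, and no direction is read from this class. It held 0.932%, 3.48%, 0.938%, 1.51% and 0.735% of the counts in tumors 1 to 5 and 0.651%, 0.279% and 0.557% in the pads, with every tumor above every pad. The difference in means did not pass (exact permutation p = 0.125, two-sided, adjusted over 5 classes 0.156).

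**Figure D4:**
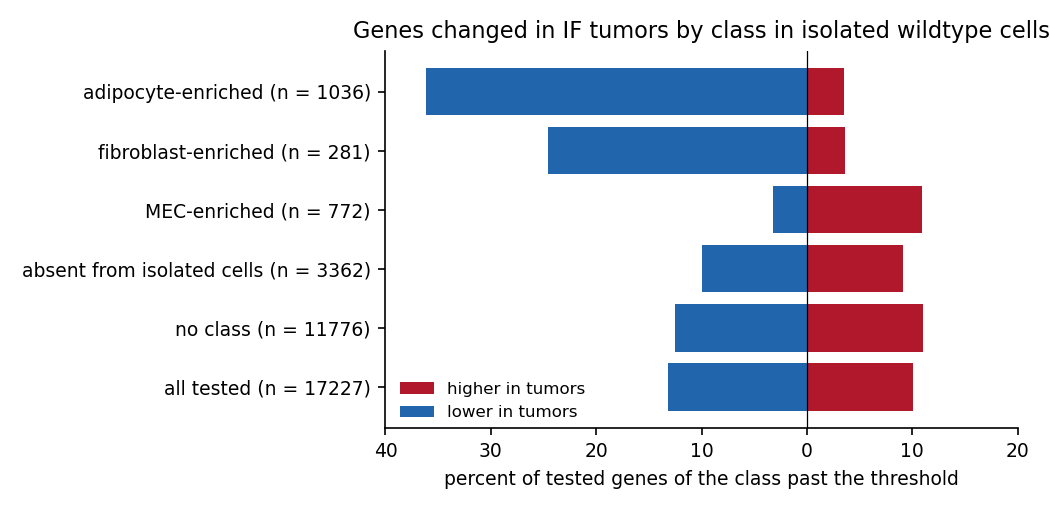
For each class of genes in isolated wildtype cells, the bar to the right gives the percentage of its tested genes that were higher in IF tumors than in IF pads and the bar to the left the percentage that were lower. Adipocyte-enriched genes have the longest bar to the left (36.2%), and MEC-enriched genes the shortest (3.24%).

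The tumors were also set against all 12 non-tumor IF libraries, the 3 pads and the 3 libraries each of isolated MECs, adipocytes and fibroblasts. All 5 tumors were above all 12 non-tumor libraries for 1091 genes (6.33%), of which 655 were called higher against pads. They were below all 12 for 1181 genes (6.86%), of which 805 were called lower. Of the 655 genes, 71.9% had no class, 21.5% were absent from isolated cells and 5.95% were MEC-enriched, near the 68.4%, 19.5% and 4.48% of all genes tested. A further 3 genes were adipocyte-enriched and 1 was fibroblast-enriched. For 97 of the 655 the lowest tumor was at least 2-fold above the highest non-tumor library. For 148 of the 805 the highest tumor was at least 2-fold below the lowest non-tumor library. Cell types of the gland that were not isolated could still hold such levels.

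The tumors varied more among themselves than the pads did. The median standard deviation of log2(CPM + 1) was 0.29 among the 5 tumors and 0.15 among the 3 pads, and 79.4% of genes had the larger value among tumors. In fibroblast-enriched genes the medians were 0.73 in tumors and 0.26 in pads, and in MEC-enriched genes 0.67 and 0.24. Spearman correlations across genes, which are not independent replicates, were 0.965 to 0.978 among tumors 3, 4 and 5. They were 0.910 to 0.947 between tumor 1 and the others, 0.894 to 0.910 between tumor 2 and the others, 0.968 to 0.991 among the pads, and 0.866 to 0.904 between tumors and pads. Tumor 2 correlated with tumors 3, 4 and 5 at 0.901, 0.894 and 0.894, below the 0.904 of tumor 5 with pad 1 and the 0.902 of tumor 1 with pad 1. Of 256 genes with a standard deviation above 2 among tumors, 143 were highest in tumor 2, 46 in tumor 1 and 19 to 24 in each other tumor. Of the 256 genes, 39.8% were absent from isolated cells and 18.4% were MEC-enriched, against 19.5% and 4.48% of all genes tested. In tumor 2 the 10 most abundant genes held 26.9% of the counts, against 9.7% to 15.1% in the other tumors. Leaving out tumor 2 left 3446 called genes, 3085 of them among the 4007, all in the same direction.

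Whether the tumor-pad change of IF differed from that of the other mutated lines was tested directly. These tests use 9 PS tumors with 6 PS pads and 9 IFPS tumors with 6 IFPS pads, and both use the same IF libraries. Against PS, 62 genes (0.36%) passed, 54 (0.313%) with a more positive change in IF and 8 (0.0464%) with a more negative change. Without IFPS tumors 6, 8 and 9 in the fit, 375 genes passed. Of the 54 genes, 48 were themselves higher in IF tumors than in IF pads. Over the 54 genes the median log2 fold change was 1.77 in IF and -0.45 in PS, and the fitted changes had opposite signs for 48 of the 54. Their median level was 52.7 CPM in IF tumors, 13.9 CPM in IF pads, 12.8 CPM in PS tumors and 19 CPM in PS pads. In 39 of the 54 every IF tumor was above every PS tumor, which held for 1.75% of all genes tested. The test that chose the 62 genes, in either direction, favors such signs and levels, so these values are a description. By class, 64.8% of the 54 had no class and 22.2% were absent from isolated cells, near the 68.4% and 19.5% of all genes tested. Of the 8 genes with a more negative change, 6 were lower in IF tumors than in IF pads, with a median log2 fold change of -1.13 in IF and 2.08 in PS over the 8.

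Against IFPS, 80 genes (0.464%) passed, 45 (0.261%) more positive and 35 (0.203%) more negative in IF. Without IFPS tumors 6, 8 and 9, 483 genes passed, 286 more positive and 197 more negative. Of the 45 genes, 41 were higher in IF tumors than in IF pads, with medians of 1.27 in IF and -0.44 in IFPS on the log2 scale, and in 30 every IF tumor was above every IFPS tumor (1.47% of all genes tested). Of the 35 genes, 29 were lower in IF tumors than in IF pads, with medians of -1.37 in IF and 0.49 in IFPS. In 19 of the 35 every IF tumor was below every IFPS tumor (0.731%). The test that chose the 80 genes favors such signs and levels, so these values are again a description. By class, more positive and more negative changes numbered 31 and 25 for genes of no class. For genes absent from isolated cells they numbered 9 and 3. They numbered 3 and 1 for MEC-enriched, 2 and 2 for adipocyte-enriched and 0 and 4 for fibroblast-enriched genes. In this order the classes made up 68.9%, 20.0%, 6.67%, 4.44% and 0% of the 45 genes. Of the 35 genes they made up 71.4%, 8.57%, 2.86%, 5.71% and 11.4%. Of all genes tested they hold 68.4%, 19.5%, 4.48%, 6.01% and 1.63%.

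The counts of these differences changed with single libraries and with the tool, and DESeq2 called 255 genes against PS and 598 against IFPS. At an unadjusted p under 0.05, edgeR gave 1653 and 2827 genes. Without IF pad 1, 2 or 3 the count against PS was 0 each time (1260, 1364 and 1265 unadjusted), and the count against IFPS was 25, 0 and 5 (2530, 2042 and 2322 unadjusted). Single tumors also moved the counts, to 41, 40 and 95 against PS without tumors 1, 2 and 5 and to 122 and 154 against IFPS without tumors 3 and 5. With only the PS and IFPS pads that carry title numbers up to 12, as the IF pads do, 7 genes differed from PS and 0 from IFPS (2000 unadjusted, edgeR). The class medians of the 3 lines are given side by side without a test. For adipocyte-enriched genes IF had a median tumor-pad log2 fold change of -1.36, PS of -1.09 and IFPS of -0.44. For fibroblast-enriched genes the medians in this order were -0.81, -0.95 and 0.07, and for MEC-enriched genes 1.08, 1.13 and 0.67. Without IFPS tumors 6, 8 and 9 the IFPS medians were -1.14 for adipocyte-enriched, -0.84 for fibroblast-enriched and 1.09 for MEC-enriched genes, so the sign of the fibroblast-enriched median turned. These tumors were set apart by their MEC-enriched share and, for tumor 6, its adipocyte-enriched share. Shifts in the medians of these classes therefore follow in part from the choice. The share of counts on MEC-enriched genes was 7.40% to 11.7% in IF tumors, 5.37% to 7.80% in PS tumors and 0.388% to 6.82% in IFPS tumors, against 1.77% to 2.37%, 1.92% to 3.65% and 1.56% to 3.22% in the pads of these lines.

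**Figure D5:**
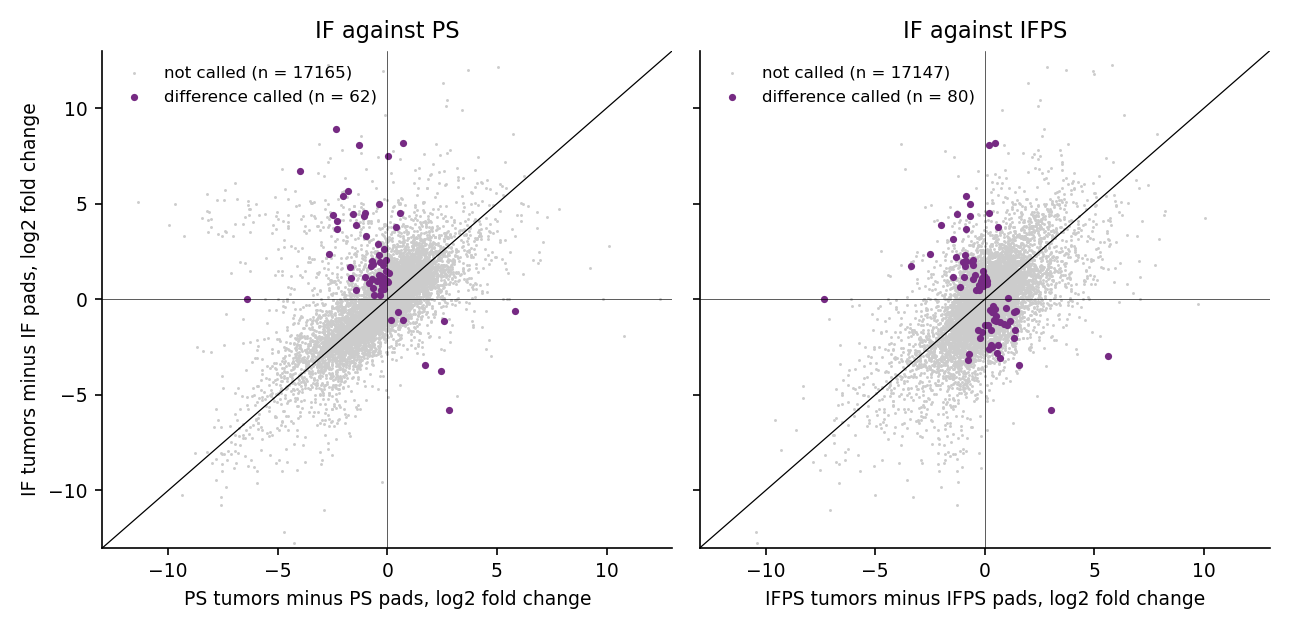
Each point is a gene, with its log2 fold change of PS (left) or IFPS (right) tumors against pads on the x axis and that of IF tumors against pads on the y axis, and the diagonal marks equal change. Purple points are the 62 and 80 genes whose changes differed past the threshold, and most of those in the left panel lie above the diagonal.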

How the data were processed

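RNA was extracted with Trizol from fresh tumors and pads, and mRNA libraries (KAPA mRNA Hyperprep) were sequenced as 50 bp paired-end reads, per the labels' protocols. The deposited values are raw counts per gene, whole numbers for 32883 Ensembl identifiers, used as the authors deposited them. The submitters' processing notes name Trim Galore, STAR 2.5.2b and the build Rnor_6.0. The annotation, the counting tool and the use of strand are not given in the sources used here, so genes sharing reads with a copy, an overlapping or an antisense gene are uncertain. A total of 6365 identifiers had no count.

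Differential expression was tested with edgeR 4.0.16 in R 4.3.3 (quasi-likelihood test, TMM normalization, filterByExpr, Benjamini-Hochberg adjustment over all 17227 genes tested). The fit held the 38 tumor and pad libraries of the 3 mutated lines, which shared 1 estimate of the spread, with contrasts for IF tumors against IF pads and for the difference of this change from that of PS and of IFPS. A standard error is the absolute log2 fold change divided by the square root of the F statistic. Printed levels are CPM with TMM factors over all 80 libraries, and shares of counts are percentages of the library total. Shares were compared by exact permutation over libraries. No 2 libraries of a group agreed within sampling noise (smallest chi-square per degree of freedom 34.3 over genes with at least 20 counts). None was thus a copy of another, and each was counted as 1 replicate. The check cannot show whether 2 libraries came from the same animal.

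Counts were simulated with 200 genes changed in IF tumors (16991 genes tested), drawn from genes with a mean of at least 1 CPM. The test of IF tumors against IF pads recovered 30% of 2-fold and 69% of 4-fold changes, and 3.88% of its calls were unchanged genes. Against PS it recovered 26% and 65% (5.21% unchanged) and against IFPS 22% and 60% (4.65% unchanged). Far fewer genes were changed than the 4007 called in the data, so these rates may not hold there.

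The rule for named genes asked for symbols. Of the identifiers, 0 matched the reference table of 47357 rat genes (GRCr8), so the 2 largest increases and 2 largest decreases among called genes without overlap and with at least 10 CPM in the higher group are printed, and no sequence is shown. Nf1 and lists of named genes were not analysed here. The comparison, the cell classes and the lists were chosen with earlier results of these data known. Alternatives were RLE size factors, no filter on low counts, DESeq2 1.42.0, other sets of libraries and leaving out each IF library. Thinned counts, a fit without 3 IFPS tumors, wildtype pads and IF isolated cells as reference were added after the data were seen.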

Additional observations from a re-analysis of the deposited data

Results flagged for a closer look

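Tumor 2 stood apart from the other IF tumors in 3 measures, each by a gap to the next tumor of more than 0.710 of the whole range of the 5 tumors. It had 8.02% of its counts on adipocyte-enriched genes (next 4.55%), 3.48% on genes absent from isolated cells (next 1.51%) and 136550 CPM of ENSRNOG00000039326 (next 43607 CPM). For ENSRNOG00000020945, tumor 3 was the highest tumor at 0.0389 CPM, which is 1 count against 0 in the other 4. Of 11 measures examined 4 met this criterion, which chance meets in about 1 of 20 groups. The identifiers were chosen as extremes, and 1 count against 0 meets it by construction, so the number is not read against that rate.

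The tumor-pad change of IF differed from that of PS in 62 genes and from that of IFPS in 80 genes by edgeR's test of the difference. Both counts changed when a single IF library was left out, as given with the results.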

How the results depend on the processing

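With DESeq2-type size factors, no filter on low counts, DESeq2, the fit without the PS and IFPS pads 13 to 21, only the 8 IF libraries or thinned counts, the number of genes that differed between IF tumors and IF pads stayed within 1.5 times of 4007. It was 1504 at an adjusted p under 0.01, 7369 with 6 wildtype pads in place of the IF pads and 7038 without IFPS tumors 6, 8 and 9, and it ran from 2113 to 3898 when 1 IF library was left out. The difference from PS gave 29 genes with no filter on low counts, 255 with DESeq2, 7 without pads 13 to 21, 375 without the 3 IFPS tumors and 0 to 95 when 1 IF library was left out. The difference from IFPS gave 47, 598, 0, 483 and 0 to 154 genes under the same changes. No filter tests more genes. Leaving out pads 13 to 21 lowers the number of libraries and also removes 1 set of title numbers, which cannot be told apart. The cause was not tested for any of these changes.

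With enrichment defined at 8-fold, the median log2 fold change was -1.71 for adipocyte-enriched and -0.72 for fibroblast-enriched genes. When 1 IF library was left out, the medians ran from -1.47 to -1.24 for adipocyte-enriched, from -0.96 to -0.71 for fibroblast-enriched and from 1 to 1.17 for MEC-enriched genes. The 3 medians kept their sign in every alternative run. Of the 4 identifiers, ENSRNOG00000039326 missed the threshold without any 1 of the IF pads, as given with its levels, and with wildtype pads 1 to 3 in place of the IF pads (log2 fold change 6.68, adjusted p-value 0.0805 by edgeR). The other 3 stayed past it in every alternative that gave a value, with ENSRNOG00000029881 giving none in the fit of only the 8 IF libraries.

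No paired analysis was possible because the tumors carry no number that the pads share. Alternatives planned for lists of named genes were not run, since no identifier had a symbol. With counts thinned to the smallest total, 4053 genes were called.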
